A study of Mus musculus with 2 samples.

Results

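Cells build cholesterol and fatty acids from acetyl-CoA, and both routes spend NADPH, which the oxidative pentose phosphate pathway supplies in part. To follow these routes in tumor leukocytes, 31 listed genes of lipid synthesis, sterol sensing and efflux were read out of 32285 genes in 2 single-cell RNA libraries, and all 31 were found in both. The list held 16 enzymes of sterol synthesis, 4 genes of sterol sensing and transport, 3 enzymes of fatty acid synthesis, 6 desaturases and elongases, and 2 efflux pumps. In the sterol branch, the mevalonate enzymes make isoprenoid units, which are joined to squalene and then closed and trimmed to cholesterol. When membrane sterol falls, the SREBP transcription factors leave the endoplasmic reticulum and raise the genes of both branches, whereas INSIG proteins hold them back. Macrophages export excess cholesterol through ABCA1 and ABCG1, which are known targets of the oxysterol receptors.

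The libraries are called here by their labels. WT came from female Pgd fl/fl mice, in which both alleles of Pgd are floxed and no Cre is present. 6PGDKO came from female Pgd fl/fl LysM-Cre mice, which carry the same floxed alleles and Cre in the Lyz2 locus, active in myeloid cells. Pgd encodes 6-phosphogluconate dehydrogenase, an NADPH-making enzyme of the pentose phosphate pathway. Each library pooled the AT3 tumors of 10 mice on day 30, AT3 being a mouse mammary tumor cell line injected into the mammary fat pad. The labels name a sort for CD45+ cells and, in another sentence, for CD11b+ cells, and both libraries held T and B cells. Each genotype had 1 library and no replicate. No test between genotypes was therefore made, and every interval below is a 95% interval that covers counting error only.

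The WT library held 3728 barcodes, of which 3565 were kept as cells with a median of 5554 unique molecular identifiers (UMIs, the tags of captured RNA molecules). The 6PGDKO library held 3014 barcodes, of which 2798 were kept with a median of 7926 UMIs, and the libraries shared 0 barcodes. Clustering gave 21 clusters, 19 of them named from markers. The cell mixture differed between the libraries: B cells were 570 and 36 cells, naive T cells 467 and 52, and classical monocytes 128 and 343, with WT given before 6PGDKO here and below. Macrophages were 749 and 769 cells, Langerhans-like cells 103 and 147, dendritic cells (DCs) 101 and 137, and T cells 1643 and 1025. Markers of other lineages were frequent. Among the macrophages of the Vcam1-led cluster, 21.2% of cells in WT and 33.5% in 6PGDKO carried at least 2 UMIs of T cell markers.

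Pgd itself was low in the myeloid cells of the 6PGDKO library. Levels are given as UMIs per 1000000 UMIs of the same cells (CPM), and ratios as the log2 of the 6PGDKO level over the WT level. In macrophages Pgd went from 959 UMIs and 104 CPM to 318 UMIs and 29.9 CPM, a log2 ratio of -1.80 (-1.98 to -1.61). Monocytes gave -1.36 (-1.76 to -0.97). In Langerhans-like cells it was -0.55 (-1.08 to -0.02) and in DCs -0.13 (-0.80 to 0.55). T cells gave 0.27 (-0.01 to 0.55). The library labels and Pgd thus went together in macrophages and monocytes. The epithelial tumor cells, a cluster named from keratins and led by Krt14, gave -1.19 (-1.91 to -0.49) from 41 and 32 UMIs.

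The question put first was where in the tumor these genes were used. The highest summed level of the 16 sterol enzymes was found in the Langerhans-like cells, a cluster led by H2-M5 in which the Langerhans cell markers Cd207 and Epcam were among the leading genes. Langerhans cells are antigen-presenting cells of the epidermis. Their sterol enzymes summed to 1345 CPM (1283 to 1410) in WT and to 1138 CPM (1092 to 1185) in 6PGDKO. The next cluster in both libraries, the mature migratory DCs led by Fscn1, reached 835 CPM (772 to 901) and 881 CPM (829 to 935). Neither interval of the DCs met that of the Langerhans-like cells.

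Below these clusters came type 1 DCs at 571 and 475 CPM, cycling macrophages at 559 and 666 CPM, monocytes at 529 and 551 CPM and epithelial tumor cells at 429 and 498 CPM, whose order changed between the libraries. Macrophages as a class stood at 421 and 451 CPM. Lymphocytes were lower, with T cells at 286 and 324 CPM and B cells at 222 and 253 CPM. The lowest named clusters were neutrophils at 167 and 186 CPM and naive T cells at 191 and 158 CPM, whose intervals overlapped in each library. The plot of the sterol sum by cluster shows this order.

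**Figure D1:**
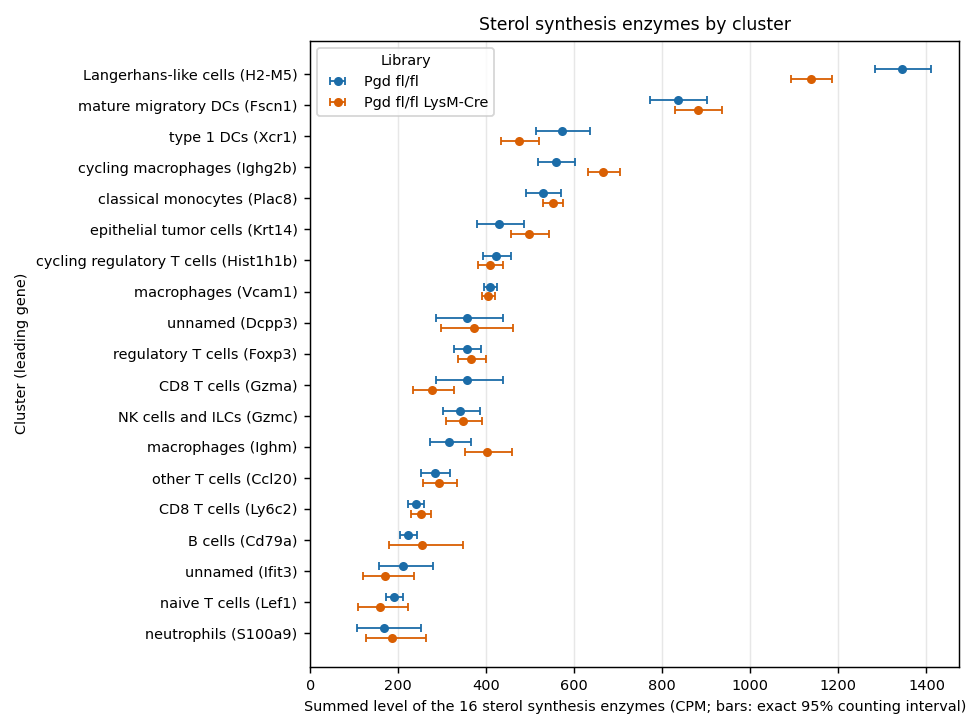
Summed level of the 16 sterol synthesis enzymes in each cluster of the WT (Pgd fl/fl) and 6PGDKO (LysM-Cre) libraries, in CPM of the UMIs of that cluster, with exact Poisson 95% intervals. Langerhans-like cells lie highest in both libraries at 1345 and 1138 CPM, and mature migratory DCs follow at 835 and 881 CPM.

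Median depth differed between the classes as well, and its part in their order was not tested. Neutrophils and naive T cells, lowest in the sterol sum, also had low depth, with medians of 2231 and 2113 UMIs and of 4438 and 3870.5 UMIs. The median cell held 11926 and 13460 UMIs among Langerhans-like cells, 11861 and 12863 among macrophages, 13463 and 14847 among DCs, and 4873 and 5307 among T cells. Against macrophages, the Langerhans-like cells had a sterol sum 3.20-fold higher in WT, a log2 ratio of 1.68 (1.59 to 1.76), and 2.53-fold higher in 6PGDKO, a log2 ratio of 1.34 (1.26 to 1.41). Of 30 members with at least 50 UMIs over both classes, 22 and 21 were at least 1.5-fold higher in the Langerhans-like cells and 2 were lower in each library. Over all genes tested in the same way, 15% and 12.3% were that much higher. The share of all genes that were lower was not counted, so the 2 lower members cannot be set against it. This comparison was chosen after the levels had been seen, and 8 of the 31 members were among the genes used for clustering. When the cells were clustered without the members, the Langerhans-like class grew to 116 and 172 cells and the sum was 3.18-fold and 2.74-fold that of macrophages. Without cells that carried at least 2 UMIs of T cell or of B cell markers, 22 and 37 Langerhans-like cells were left. The sum was then 3.92-fold and 2.68-fold that of macrophages. Langerhans-like cells with UMIs of macrophage markers were not left out.

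The same enzymes separated the Langerhans-like cells from DCs and T cells. The sum was 1.87-fold and 1.62-fold that of DCs, with 17 of 21 members in WT and 16 of 26 in 6PGDKO at least 1.5-fold higher, where 25.4% and 20.2% of all genes were. It was 4.70-fold and 3.51-fold that of T cells, with 24 of 30 and 23 of 29 members higher against 23.6% and 20.5% of all genes. Macrophages differed less from T cells. Only 7 and 13 of 31 members were at least 1.5-fold higher in macrophages, where 26.4% and 24.8% of all genes were, and the log2 ratio of the sterol sum was 0.56 (0.49 to 0.63) and 0.47 (0.40 to 0.55).

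Across the clusters with at least 25 cells, 19 in WT and 20 in 6PGDKO, 20 of the 31 members had their highest level in the same cluster of both libraries. For 14 of these, 9 sterol enzymes among them, the cluster was the Langerhans-like cells. Of 11185 genes with at least 50 UMIs in each library, which include all 31 members, 42.8% were highest in the same cluster of both libraries and 2.43% in the Langerhans-like cells of both. The heat map of members by cluster shows both libraries side by side.

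**Figure D2:**
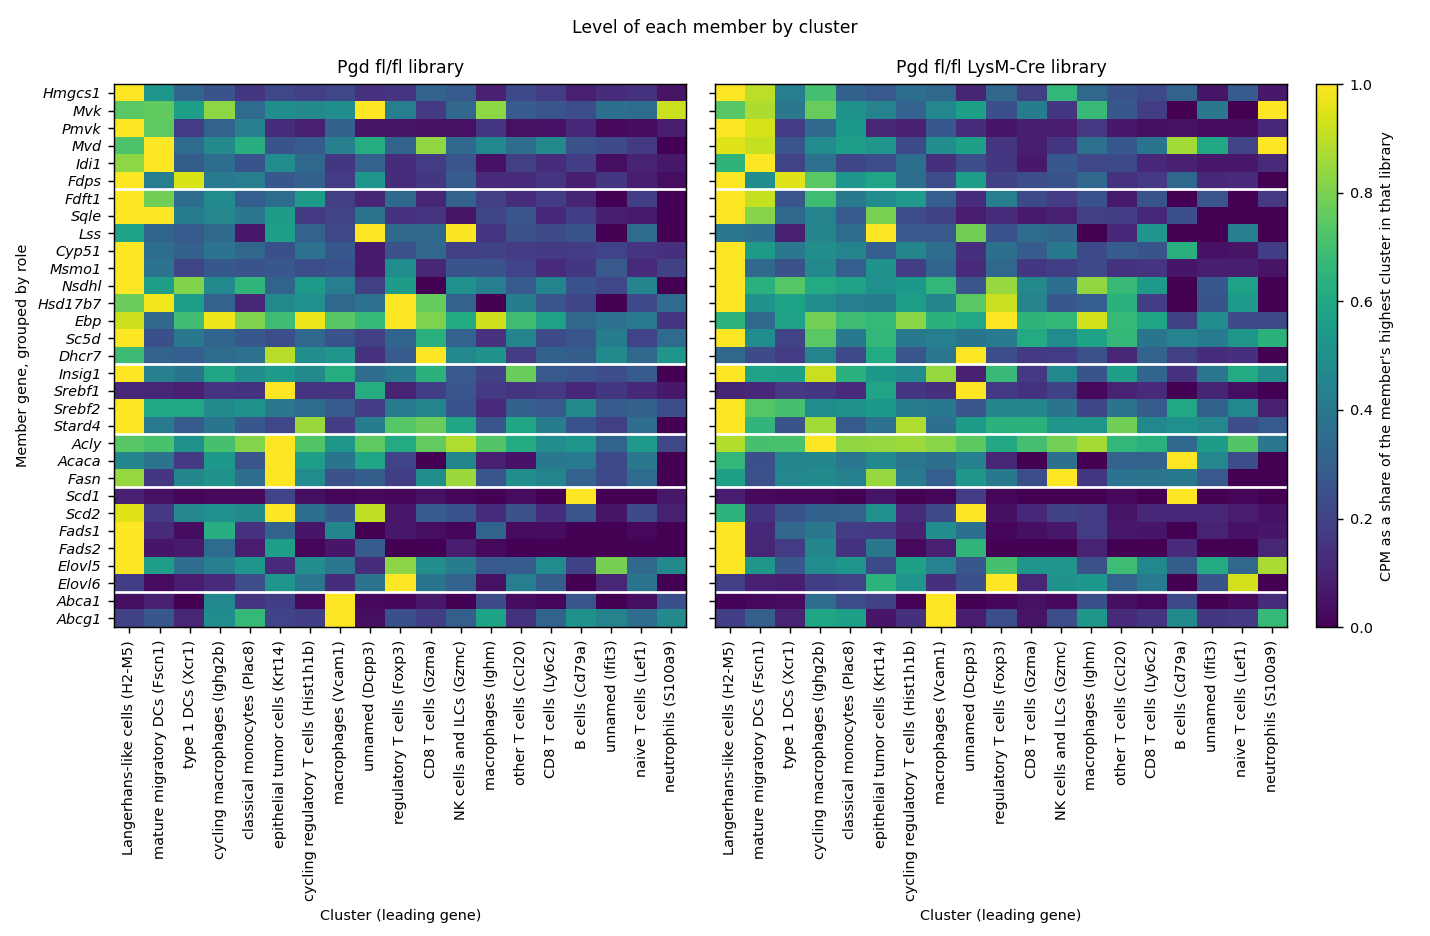
Level of the 31 members in each cluster with at least 25 cells in the WT library, shown for both libraries. Rows are members and columns clusters, and the colour is the CPM as a share of that member's highest value among the clusters shown in that library, so colours cannot be compared between members. The column of Langerhans-like cells is at or near its maximum for most sterol enzymes, Scd1 peaks in B cells, and Abca1 and Abcg1 peak in the Vcam1-led macrophages.

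Among the mevalonate and isoprenoid enzymes, Hmgcs1, which makes HMG-CoA, was at 138 CPM in the Langerhans-like cells of WT and 83.3 CPM in those of 6PGDKO. Mature migratory DCs held 72.7 and 75.0 CPM of Hmgcs1, and the log2 ratio between the clusters was 0.93 (0.49 to 1.38) in WT but 0.15 (-0.22 to 0.53) in 6PGDKO. Pmvk, the phosphomevalonate kinase, stood at 363 and 305 CPM in Langerhans-like cells and at 273 and 287 CPM in mature migratory DCs. Both enzymes were thus led by the same cluster, with a lead that was within counting error in the 6PGDKO library. Fdps, which makes farnesyl diphosphate, was at 197 and 158 CPM and did not differ beyond its interval from type 1 DCs at 185 and 150 CPM. Idi1, the isopentenyl diphosphate isomerase, was instead highest in mature migratory DCs at 114 and 145 CPM, with Langerhans-like cells at 94.1 and 94.6 CPM, within counting error in WT. Mvk and Mvd, which act on mevalonate before and after Pmvk, had no common highest cluster, and their highest levels did not exceed 23.7 and 23.2 CPM.

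Shares of cells told the same order for Pmvk once each cell was thinned to 2000 UMIs. After thinning, 51.5% of Langerhans-like cells in WT and 42.5% in 6PGDKO held a Pmvk UMI, and 90.3% and 89.8% did before thinning. In T cells the thinned shares were 3.35% and 2.77%. Thinned Hmgcs1 was found in 19.4% and 15.8% of Langerhans-like cells and in 5.78% and 5.31% of macrophages. In B cells, whose median depth was 3396 and 3082.5 UMIs, thinned Hmgcs1 was found in 1.63% and 5.88% of cells, the latter resting on 34 cells. Every cell type here can make sterols, so the share that free RNA gives was not measured with these enzymes.

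Of the enzymes from squalene to cholesterol, Cyp51 and Msmo1 stood out most in the Langerhans-like cells. Cyp51, the lanosterol demethylase, was at 109 and 94.1 CPM there, against 41.9 CPM in the next cluster of WT, the cycling macrophages, a log2 ratio of 1.39 (0.92 to 1.88). In 6PGDKO the next cluster was B cells at 59.9 CPM from 9 UMIs, and the interval of the ratio included 0. Msmo1, the sterol C4-methyl oxidase, was at 111 and 112 CPM, and its ratio to the next cluster was 1.04 (0.64 to 1.45) and 0.98 (0.56 to 1.41) on the log2 scale. Fdft1, the squalene synthase, was at 37.5 and 34.8 CPM and Sqle, the squalene epoxidase, at 51.2 and 54.9 CPM, neither separable from mature migratory DCs. Nsdhl at 20.7 and 16.7 CPM and Sc5d at 62.7 and 45.1 CPM, which act late in the pathway, also peaked in Langerhans-like cells with intervals that met the next cluster.

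Not all late enzymes followed. Ebp, the sterol isomerase, was highest in regulatory T cells at 94.2 and 103 CPM, though its levels over the clusters had a median of 65.2 and 66.5 CPM and the next cluster was within counting error. Lss, Hsd17b7 and Dhcr7 had different highest clusters in the libraries, at no more than 35.0 CPM. Each sterol enzyme was also set against the sum of the other sterol enzymes over the clusters. Spearman's rho over 19 clusters of WT ran from 0.0895 for Dhcr7 to 0.821 for Fdft1, and over 20 clusters of 6PGDKO from 0.0992 for Sc5d to 0.848 for Msmo1. These are descriptions over clusters that share a library and differ in depth.

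Promoter sequences are shown here for the letters that are known to bind SREBPs and their partner. RefSeq promoters of the GRCm38.p6 build were matched for 23 of the 31 members, and the 250 bases before each start were searched on both strands. A sterol response element, spelled TCACNCCAC, is a known binding site of SREBPs, and CCAAT boxes bind NF-Y, a known partner of SREBPs. The sterol response element was found in 1 of 23 members (4.35%), Hmgcs1, and in 1.22% of 27025 genes. CCAAT was found in 18 of 23 members (78.3%) and in 37.5% of all genes, and the E-box CACGTG in 6 of 23 members (26.1%) and in 6.86% of all genes. At least 3 CCAAT boxes were found in 5 members (21.7%) and in 3.23% of all genes, and these 5 promoters, chosen after the matches were seen, are printed 5′ to 3′ on the strand of the gene. Capitals mark the matches, and a CCAAT box on the other strand reads ATTGG.
Hmgcs1: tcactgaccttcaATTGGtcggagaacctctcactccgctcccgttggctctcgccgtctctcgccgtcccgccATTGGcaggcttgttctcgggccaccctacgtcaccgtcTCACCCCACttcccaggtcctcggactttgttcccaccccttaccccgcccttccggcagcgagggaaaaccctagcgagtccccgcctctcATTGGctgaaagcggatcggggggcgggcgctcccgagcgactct
Mvk: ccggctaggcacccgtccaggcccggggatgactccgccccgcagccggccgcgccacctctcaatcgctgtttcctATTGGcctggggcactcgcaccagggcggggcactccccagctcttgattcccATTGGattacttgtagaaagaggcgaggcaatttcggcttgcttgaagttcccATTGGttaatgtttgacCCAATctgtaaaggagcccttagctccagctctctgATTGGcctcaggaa
Msmo1: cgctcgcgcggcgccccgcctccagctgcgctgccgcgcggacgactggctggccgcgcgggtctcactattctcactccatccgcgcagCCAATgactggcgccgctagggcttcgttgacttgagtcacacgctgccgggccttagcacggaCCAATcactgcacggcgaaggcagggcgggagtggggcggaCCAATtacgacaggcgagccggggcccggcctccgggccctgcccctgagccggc
Hsd17b7: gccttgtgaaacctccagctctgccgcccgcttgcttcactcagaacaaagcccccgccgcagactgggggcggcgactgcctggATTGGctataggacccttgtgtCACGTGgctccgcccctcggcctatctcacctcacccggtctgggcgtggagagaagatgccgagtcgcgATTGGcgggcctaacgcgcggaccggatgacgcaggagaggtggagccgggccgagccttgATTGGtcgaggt
Fasn: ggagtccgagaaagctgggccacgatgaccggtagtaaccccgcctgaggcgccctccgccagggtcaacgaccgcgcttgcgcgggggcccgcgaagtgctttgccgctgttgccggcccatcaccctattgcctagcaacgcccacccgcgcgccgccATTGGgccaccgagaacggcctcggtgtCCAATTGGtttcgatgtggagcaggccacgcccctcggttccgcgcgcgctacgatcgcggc
The Hmgcs1 window, chr13:119690101-119690350 on the plus strand, holds its sterol response element with the first base 137 bases before the start and CCAAT boxes at 237, 176 and 45 bases. The Mvk window, chr5:114444019-114444268 on the plus strand, holds 5 CCAAT boxes, at 173, 120, 67, 50 and 14 bases. The Msmo1 window, chr8:64733579-64733828 on the minus strand, holds them at 160, 96 and 55 bases. The Hsd17b7 window, chr1:169969206-169969455 on the minus strand, holds them at 165, 73 and 12 bases and an E-box at 143 bases. The Fasn window, chr11:120824548-120824797 on the minus strand, holds them at 90, 62 and 59 bases, the last pair overlapping in opposite directions. This window lies inside the span of the gene, chr11:120805958-120825166, and so before a start that is not the outermost one. The Mvk and Hsd17b7 windows overlap the ends of their gene spans in part. Of these 5 genes, Hmgcs1 and Msmo1 peaked in Langerhans-like cells in both libraries, while Mvk, Hsd17b7 and Fasn did not. A match is a run of letters and not a measured binding site.

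Among the genes of sterol sensing and transport, Srebf2, the SREBP of the sterol branch, was highest in Langerhans-like cells at 151 and 133 CPM. Its ratio to mature migratory DCs, the next cluster, was 0.73 (0.34 to 1.15) and 0.44 (0.13 to 0.76) on the log2 scale. Stard4, a carrier of cholesterol between membranes, was also highest there at 46.7 and 39.7 CPM, within counting error of cycling regulatory T cells at 39.7 and 35.0 CPM. Srebf1, the SREBP of the fatty acid branch, was instead highest in epithelial tumor cells of WT at 108 CPM and in an unnamed Dcpp3-led cluster of 6PGDKO at 136 CPM. In Langerhans-like cells Srebf1 was at 12.2 and 14.2 CPM from 16 and 29 UMIs, so the SREBP genes had different highest clusters. Insig1, the sterol-sensing anchor, was at 55.8 and 47.1 CPM in Langerhans-like cells, and at 83.9 CPM in the 49 Retnla-led macrophages of 6PGDKO.

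The enzymes of fatty acid synthesis were spread more evenly. Acly, which makes cytosolic acetyl-CoA, had a median of 48.4 CPM over the clusters of WT and a highest level of 68.2 CPM, in epithelial tumor cells. In 6PGDKO it reached 121 CPM in the Retnla-led macrophages, from 46 UMIs. Fasn, the fatty acid synthase, was highest in epithelial tumor cells at 39.9 CPM in WT and in NK cells and ILCs at 33 CPM in 6PGDKO, each within counting error of the other. Acaca, the acetyl-CoA carboxylase, was not above 20 CPM in any of these clusters.

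The desaturases and elongases split between cell types. Fads2, the delta-6 desaturase, was at 68.1 and 53.4 CPM in Langerhans-like cells and at 0.425 and 0.297 CPM in T cells, from 4 and 2 UMIs. After thinning, 13.6% and 9.59% of Langerhans-like cells held a Fads2 UMI (48.5% and 45.6% before), while 0 of 1582 and 0 of 975 T cells did. Fads1, the delta-5 desaturase, was at 105 and 96.1 CPM in Langerhans-like cells, and the next cluster was of macrophages, at 65.7 CPM in the cycling cluster of WT and 46.9 CPM in the Vcam1-led cluster of 6PGDKO. The lead of Fads2 over the next cluster was 0.83 (0.16 to 1.56) over epithelial tumor cells in WT and 0.61 (-0.42 to 1.86) over the Dcpp3-led cluster in 6PGDKO on the log2 scale, the latter within counting error. Fads1 led by 0.67 (0.27 to 1.09) and 1.03 (0.78 to 1.29). Elovl5, which elongates their products, was at 122 and 113 CPM there but within counting error of the next cluster. Elovl6, which elongates palmitate, was highest in regulatory T cells at 41.1 and 36.0 CPM and lay at 7.65 and 6.86 CPM in Langerhans-like cells. In 6PGDKO the lead over naive T cells, at 33.5 CPM, was within counting error at 0.10 (-1.04 to 1.49).

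Scd1, a stearoyl-CoA desaturase that makes monounsaturated fatty acids, was highest in B cells. They held 346 CPM in both libraries, from 801 and 52 UMIs, and the next cluster held 69.9 CPM in WT and 61.3 CPM in 6PGDKO. After thinning, 47.4% and 50% of B cells held a Scd1 UMI (66.0% and 75.0% before), against 0.379% and 0.308% of T cells (0.974% and 1.17% before). B cells held 79.2% of all Scd1 UMIs in WT and 21.2% in 6PGDKO. Scd2, its paralog, did not share this pattern and stood at 22.0 and 13.3 CPM in B cells and at 79.5 and 76.5 CPM in Langerhans-like cells.

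The efflux pumps were highest in macrophages. Abca1 was highest in the Vcam1-led macrophages at 180 CPM in both libraries, and macrophages as a class held 86.0% and 85.8% of its UMIs. In Langerhans-like cells Abca1 was at 6.88 and 1.47 CPM, from 9 and 3 UMIs. After thinning, 21.5% and 22.9% of macrophages held an Abca1 UMI (59.1% and 63.3% before), against 0.885% and 1.13% of T cells. Abcg1 was highest in the same macrophages at 108 and 113 CPM and at 21.4 and 21.1 CPM in Langerhans-like cells. In 6PGDKO the lead of both pumps over the Retnla-led macrophages was within counting error. The clusters with the highest sterol enzyme sum and with the highest efflux pumps were thus different ones.

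**Figure D3:**
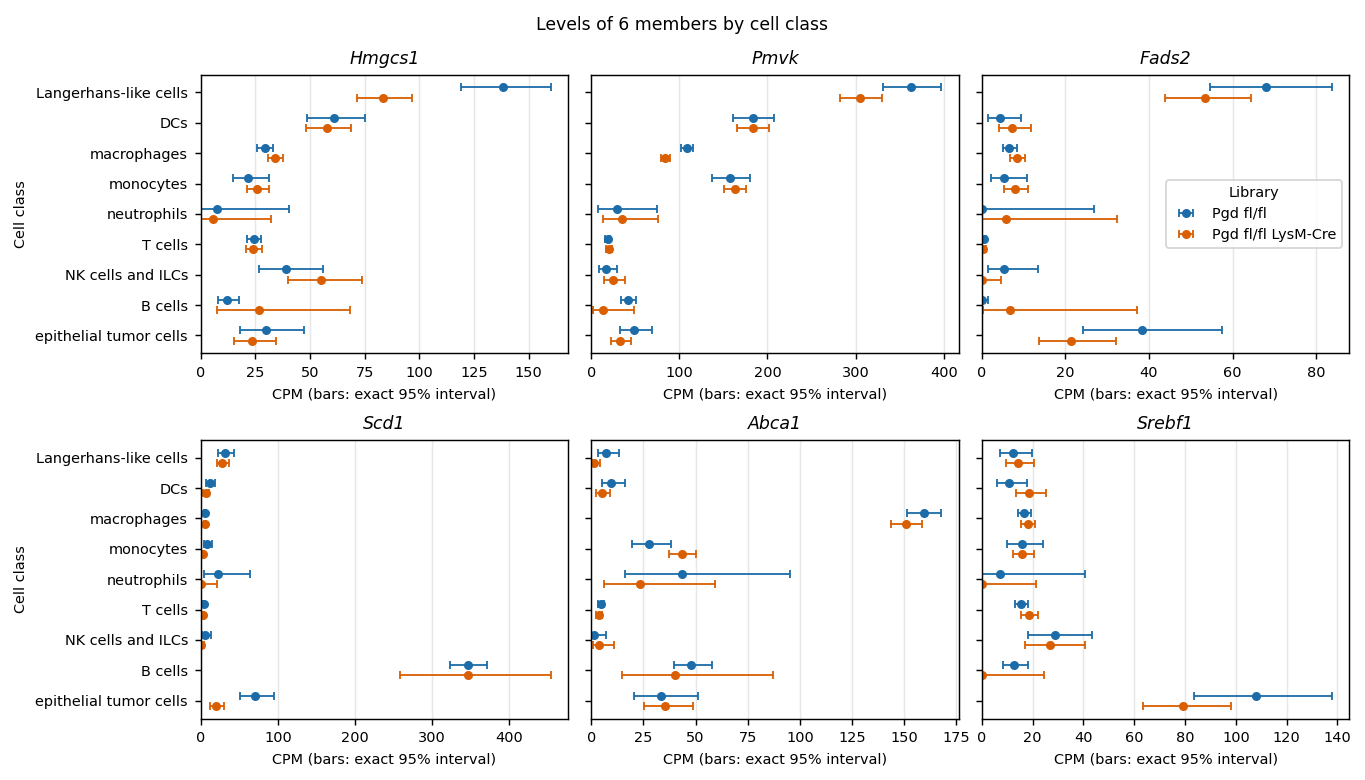
Level of 6 members in each cell class of each library, in CPM with exact Poisson 95% intervals. Hmgcs1, Pmvk and Fads2 are highest in Langerhans-like cells, Scd1 in B cells at 346 CPM in both libraries, Abca1 in macrophages, and Srebf1 in epithelial tumor cells.

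The comparison of genotypes asked whether these genes differed where Pgd was deleted. In macrophages the median ratio of the members was slightly above that of all genes. All 31 members reached 50 UMIs, their median log2 ratio was 0.22 where that of all genes was 0.07, and 24 lay above 0 and 7 below. For 10 members the interval lay above 0 and for 1, Pmvk, below. The share of all genes on each side of 0 was not counted, so these counts cannot be set against all genes. The median of all genes also lay above 0, and the counts are not a result about the members. Only Fdft1 and Stard4 were at least 1.5-fold higher and 0 members were lower, where 5.06% of all genes were higher and 2.76% lower. Fdft1, the entry to the sterol branch, went from 78 UMIs and 8.46 CPM to 141 UMIs and 13.3 CPM, a log2 ratio of 0.65 (0.24 to 1.07). Stard4 went from 91 UMIs and 9.87 CPM to 198 UMIs and 18.6 CPM, a log2 ratio of 0.92 (0.55 to 1.29). Cells with a Stard4 UMI were 10.8% and 18.5% of macrophages.

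By role, most of the smaller differences in macrophages were found among the sterol sensing genes and the sterol enzymes, which also make up most of the list. Insig1 at 0.29 (0.08 to 0.51) and Srebf2 at 0.28 (0.10 to 0.47) were the other sensing genes with an interval above 0, and the summed sensing and transport genes stood at 0.34 (0.22 to 0.46). Of the enzymes, Fdps at 0.42, Idi1 at 0.43, Msmo1 at 0.45, Sc5d at 0.46, Acly at 0.45 and Scd2 at 0.26 had intervals above 0. The summed fatty acid synthesis genes stood at 0.29 (0.13 to 0.45), of which Acly held most UMIs, while Fasn at -0.08 and Acaca at -0.13 had intervals that included 0. The desaturases and elongases summed to 0.05 (-0.06 to 0.16), with Fads1 at -0.19. Pmvk went the other way, from 1003 UMIs and 109 CPM to 894 UMIs and 84.1 CPM, a log2 ratio of -0.37 (-0.50 to -0.24). Pmvk held 1003 of the 2023 UMIs of the mevalonate enzymes in WT, and their sum was 0.01 (-0.07 to 0.10), while the sum from squalene to cholesterol was 0.18 (0.09 to 0.27). The efflux pumps differed by less than counting error, with a sum of -0.03 (-0.11 to 0.05).

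Clusters of macrophages differed from each other. In the Vcam1-led cluster of 571 and 537 cells, the sterol sum was -0.01 (-0.09 to 0.06). Its mevalonate enzymes summed to -0.16 (-0.26 to -0.05) and its enzymes from squalene to cholesterol to 0.13 (0.02 to 0.23). Stard4 was the 1 member at least 1.5-fold higher there, at 0.78 (0.32 to 1.25), with 0 lower, where 4.86% of all genes were higher and 2.65% lower. In the cycling macrophages of 69 and 82 cells, led by Ighg2b and then cell cycle genes, the sterol sum was 0.25 (0.12 to 0.39). There Hmgcs1 went from 43 to 115 UMIs at 0.73 (0.21 to 1.27), Msmo1 from 37 to 103 UMIs at 0.79 (0.23 to 1.37), Sc5d from 25 to 66 UMIs at 0.71 (0.03 to 1.44) and Stard4 from 22 to 67 UMIs at 0.92 (0.21 to 1.69). Fads1 went from 80 to 75 UMIs at -0.78 (-1.25 to -0.31). The share of all genes at least 1.5-fold higher in these cells was 6.96%, and 5.06% were lower. The median depth of the cycling macrophages was 16766 UMIs in WT and 23097.5 in 6PGDKO, and the part of depth and of cycle phase in these differences was not tested. In the Retnla-led macrophages of 15 and 49 cells, Acly went from 5 to 46 UMIs at 1.38 (0.05 to 3.07), the 1 member that was higher of 2 tested, where 12.8% of all genes were higher and 9.09% lower. The T cell markers given above for the Vcam1-led macrophages also differed between the libraries. In the cycling macrophages, 34.8% of cells in WT and 58.5% in 6PGDKO carried at least 2 UMIs of these markers. The part of such cells in the differences was not tested. Macrophages were also compared without cells that carried at least 2 UMIs of T cell or of B cell markers. Of 27 members tested there, 4 were at least 1.5-fold higher and 0 were lower. Of all genes in the same cells, 5.12% were higher and 3.36% lower.

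Monocytes, in which Pgd was also reduced, showed little. Their 24 members with at least 50 UMIs had a median of 0.04, the same as all genes. Abca1 was at least 1.5-fold higher and 0 members were lower, where 8.05% of all genes were higher and 3.66% lower. Abca1 went from 37 UMIs and 27.8 CPM to 176 UMIs and 43.3 CPM, a log2 ratio of 0.64 (0.12 to 1.19), but the 5 cells with the most Abca1 held 48.6% of its UMIs in WT. The sterol sum was 0.06 (-0.06 to 0.18). The top genes of the monocyte cluster included Cd209a and Ccl17, which are on the marker list of type 2 or monocyte-derived DCs. In a finer clustering, 399 of the 471 monocytes fell in a cluster led by Ly6i that stayed unnamed. Its top genes held Cd209a and Ccl17 as well, so the class may hold DC-like cells besides monocytes.

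**Figure D4:**
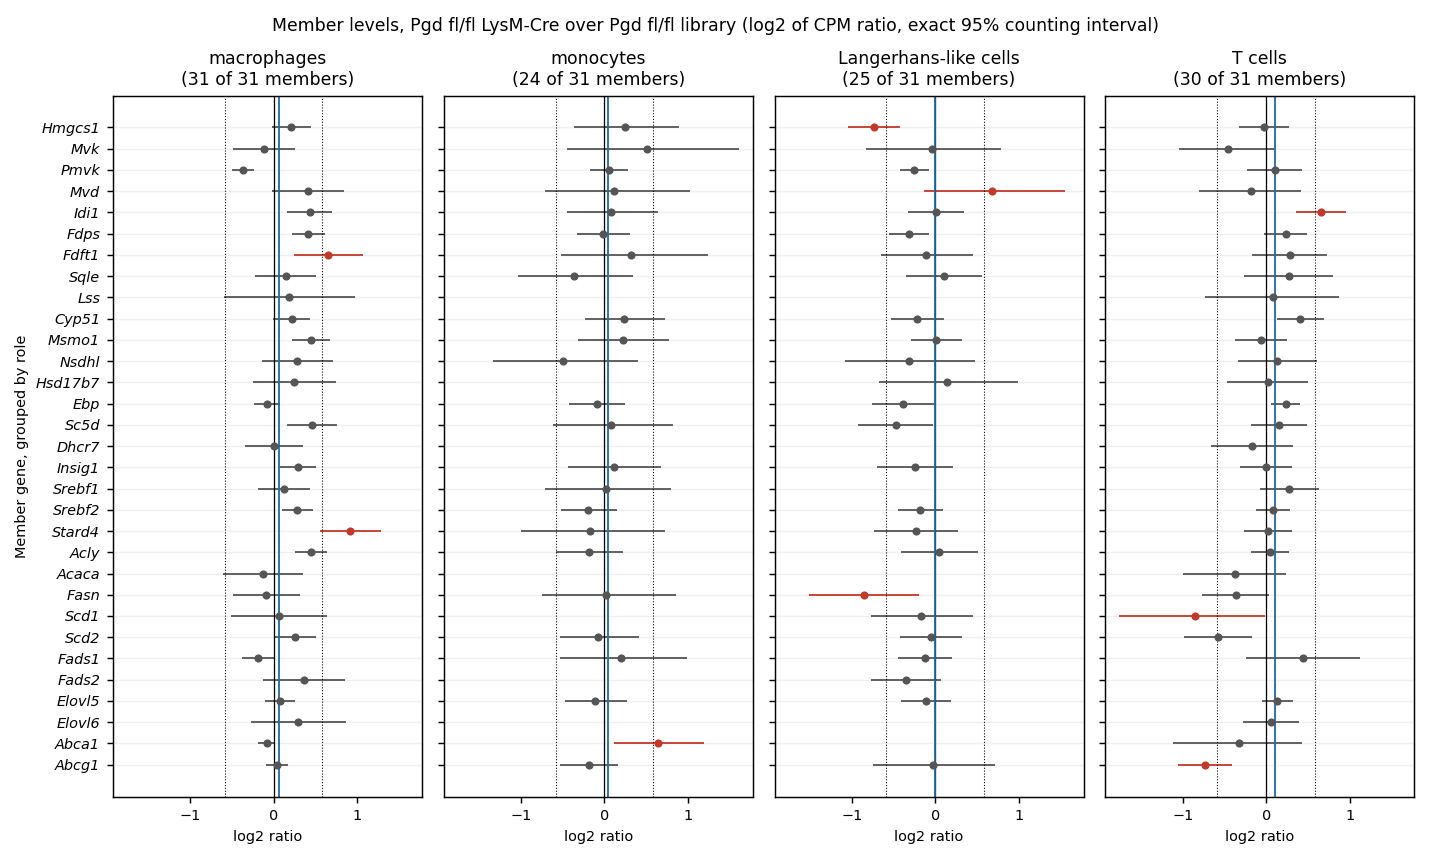
Log2 ratio of 6PGDKO over WT for the members with at least 50 UMIs in macrophages, monocytes, Langerhans-like cells and T cells, with exact 95% counting intervals and no replicate error. Red points are at least 1.5-fold apart (dotted lines), and the blue line is the median of all genes. The macrophage members have a median of 0.22 where all genes have 0.07. The Langerhans-like members have a median of -0.17 where all genes have -0.01.

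In the Langerhans-like cells the members leaned the other way. Their 25 members with at least 50 UMIs had a median of -0.17 where all genes had -0.01, with 6 above 0 and 19 below, and the sterol sum was -0.24 (-0.33 to -0.15). As in macrophages, the share of all genes on each side of 0 was not counted, so these counts are not a result about the members. Hmgcs1 and Fasn were at least 1.5-fold lower and Mvd higher, where 4.77% of all genes were lower and 4.62% higher. Hmgcs1 went from 181 UMIs in 103 cells to 170 UMIs in 147 cells, a log2 ratio of -0.73 (-1.04 to -0.42). The 5 cells with the most Hmgcs1 held 35.4% and 22.9% of these UMIs, so this interval is too narrow. Fasn went from 44 to 38 UMIs at -0.85 (-1.52 to -0.19), and Mvd from 18 to 45 UMIs at 0.68 (-0.14 to 1.56). When the cells were clustered without the members, none of the 3 was 1.5-fold apart, and Hmgcs1 stood at -0.58.

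In DCs and T cells, in which Pgd differed by less than counting error, the member medians were -0.02 and 0.06 where all genes gave 0.06 and 0.10. Of 21 members tested in DCs, Srebf1 at 0.78 (-0.11 to 1.74) and Fads1 at 1.20 (0.25 to 2.26) were at least 1.5-fold higher and 0 lower, where 8.38% of all genes were higher and 2.21% lower. Fads1 rested on 12 and 44 UMIs there. Of 30 members tested in T cells, Idi1 was higher and Abcg1 and Scd1 were lower, where 6.07% of all genes were higher and 2.98% lower. Idi1 went from 176 to 198 UMIs at 0.65 (0.35 to 0.95), and Abcg1 from 274 UMIs and 29.1 CPM to 118 UMIs and 17.5 CPM at -0.73 (-1.06 to -0.42). Abcg1 was also lower in the Ly6c2-led CD8 T cells alone, from 99 to 32 UMIs at -1.01 (-1.64 to -0.42), where 1.97% of all genes were lower and 3.35% higher. In regulatory T cells Abcg1 went from 39 to 38 UMIs at 0.03 (-0.65 to 0.71), in cycling regulatory T cells from 32 to 30 UMIs at -0.34 (-1.11 to 0.42), and in the Ccl20-led T cells from 16 to 11 UMIs at -0.18 (-1.44 to 1.01). All of these intervals included 0, so whether the T cell clusters shared a direction could not be told. Naive T cells were fewer in 6PGDKO, and without them Idi1 stood at 0.52 and Abcg1 at -0.59. Scaling by the trimmed mean of M values moved the median of all genes in T cells from 0.10 to -0.01 and that of the members to -0.05, and Idi1 was then no longer 1.5-fold higher.

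The ratio of Scd1 over all cells differed from that within B cells. Over all kept cells it went from 1012 to 245 UMIs, a log2 ratio of -2.12 (-2.33 to -1.92), but within B cells the ratio was 0.00 (-0.43 to 0.41). B cells were 15.99% of kept cells in WT and 1.29% in 6PGDKO. Outside B cells its level was lower in several classes of 6PGDKO, most of them on few UMIs. In T cells it went from 43 to 17 UMIs at -0.86 (-1.76 to -0.01), with 58.1% and 58.8% of them in the 5 cells that held most, and it was -0.21 with each cell weighted equally. In monocytes it was at 8.26 and 2.70 CPM from 11 and 11 UMIs, in DCs at 11.6 and 6.35 CPM, and in epithelial tumor cells at 69.9 and 19.6 CPM. Not all cells went this way. Macrophages held 5.31 and 5.55 CPM, and the unnamed Dcpp3-led cluster, of 44 and 48 cells, went from 2 UMIs and 7.90 CPM to 14 UMIs and 61.3 CPM, a log2 ratio of 2.96 (0.83 to 6.14). The part of RNA or cells of B lineage in these values was not tested.

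In B cells, 11 members reached 50 UMIs, and 1 was higher and 5 were lower, where 16.1% of all genes were higher and 20.4% lower. With 36 B cells in 6PGDKO, only Cyp51, at 45 and 9 UMIs and 1.62 (0.40 to 2.67), had an interval that did not include 0. In epithelial tumor cells, of 28 and 46 cells, 13 members were tested. Fdps at 0.79 (0.21 to 1.42), Sqle at 0.63 (-0.20 to 1.52) and Msmo1 at 0.93 (0.15 to 1.77) were higher, and Scd1 at -1.84 (-2.67 to -1.05) and Idi1 at -0.67 (-1.39 to 0.05) lower, where 9.27% of all genes were higher and 6.49% lower. In NK cells and ILCs, 0 of 8 members tested were 1.5-fold apart, where 4.55% of all genes were higher and 4.36% lower, and no member reached 50 UMIs in neutrophils.

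Among 35 other genes of these pathways that were not on the list, 31 were tested in macrophages. Of these, 2 were higher and 0 lower, where 5.06% of all genes were higher and 2.76% lower. The 2 were Tm7sf2, a sterol reductase, from 22 to 54 UMIs at 1.09 (0.35 to 1.88), and Acss2, which makes acetyl-CoA from acetate, from 19 to 49 UMIs at 1.16 (0.37 to 2.01). In monocytes 26 of the 35 were tested, and Por, the electron donor of the cytochrome P450 enzymes, was higher at 0.61 (0.16 to 1.08) and 0 were lower. Of all genes in monocytes, 8.05% were higher and 3.66% lower. In Langerhans-like cells 24 of the 35 were tested, 0 were higher, and Apoe, a lipid carrier that macrophages secrete and that was among the macrophage markers, was lower at -2.12 (-2.30 to -1.93), from 912 to 328 UMIs. Of all genes there, 4.62% were higher and 4.77% lower. In T cells 28 of the 35 were tested, with 1 higher and 1 lower, where 6.07% of all genes were higher and 2.98% lower. All comparisons of genotypes rest on the same 2 libraries and so share their pools of mice.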

How the data were processed

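Single-cell RNA libraries of sorted tumor leukocytes were made on the 10X Genomics platform. The authors deposited UMI counts per gene and barcode, unnormalized and before cell filters. Processing notes of the submitters name Cell Ranger 6.1.2, Seurat and mm10. Antisense and overlapping genes cannot be separated here, since strand use in counting is not given in the sources used here.

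Barcodes were kept as cells at 500 to 7500 genes and no more than 15% mitochondrial UMIs, which left more cells than the study states. Both libraries were clustered together with Seurat 5.3.0 in R 4.3.3 (2000 variable genes, 30 principal components, 20 neighbours, resolution 0.8) and named from marker lists when at least 3 markers were found in 25% of cells. Doublets were not called. An alternative left out cells of another lineage. In macrophages, monocytes and Langerhans-like cells these were cells with at least 2 UMIs of T cell or of B cell markers. In T cells they were cells with at least 2 UMIs of B cell markers or of macrophage and monocyte markers. Langerhans-like cells with UMIs of macrophage markers were not left out. UMIs were summed per class and library and scaled to CPM. Ratios carry exact conditional, CPM exact Poisson, and shares exact Clopper-Pearson 95% intervals (scipy 1.17.1). UMIs were treated as independent, so intervals are too narrow for genes held by a few cells. Genes with at least 50 UMIs over both sides and above 0 in each were compared, and 1.5-fold was used for counts, without a test. The study's Wilcoxon test over cells was not used. Named genes were the members at least 1.5-fold apart in the cell classes compared, except in B cells, where only Cyp51 was named. Members whose highest cluster was shared and Pgd were named as well. Other pathway genes were named where 1.5-fold apart in macrophages, monocytes or Langerhans-like cells. The members and lists were chosen with earlier results of these data known. Alternatives were other scalings (edgeR 4.0.16, DESeq2 1.42.0), minimums of 10 and 1 UMIs, thinning to 2000 UMIs, resolution 1.6 and clustering without the members. Stricter cell filters (under 10% mitochondrial UMIs, at least 1000 genes), leaving out cells of another lineage and equal weight per cell were also used. The ratio code was tested on simulated counts. The 12 multiplexing oligos were not used for the comparisons. Promoters came from a RefSeq table of GRCm38.p6, in which 8 members were not matched.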

Additional observations from a re-analysis of the deposited data

Results flagged for a closer look

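Hmgcs1 moved in opposite directions in different cells. Its log2 ratio between the libraries was 0.73 in cycling macrophages, from 43 and 115 UMIs, and -0.73 in Langerhans-like cells, from 181 and 170 UMIs, each with an interval that did not include 0. Fads1 did so as well, at 1.20 in DCs from 12 and 44 UMIs and at -0.78 in cycling macrophages from 80 and 75 UMIs. With 1 library per genotype these differences between cell types were not tested.

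The multiplexing oligos were not part of the comparisons. The WT library was labelled with oligo 309, which held 93.9% of its oligo UMIs, and oligo 310, the label of the other library, held 6.06%. In the 6PGDKO library oligo 310 held 96.1% and oligo 309 held 3.90%. The other 10 oligos held at most 326 UMIs each. The part of these oligo UMIs that came from free oligos or from mixed droplets was not tested.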

How the results depend on the processing

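No paired analysis was possible because there was 1 library per genotype. No sterol sum and no ratio of a single named member changed sign, and neither did the medians of macrophages and Langerhans-like cells. The median of monocytes ran from -0.17 to 0.16 and that of T cells from -0.053 to 0.20, so both changed sign. Of the summary values, 105 held and 50 moved. Of 85 values for single members that were 1.5-fold apart, 2 left the 95% counting interval of the reported value: Hmgcs1 in Langerhans-like cells to -1.37 without cells of another lineage, and Idi1 in T cells to 1.27 after thinning. In 10 of the 85 the member was no longer 1.5-fold apart: Idi1 in T cells at 0.54 with TMM, 0.55 with median of ratios scaling and 0.52 without naive T cells, Abcg1 in T cells at -0.58 without cells of another lineage and -0.52 with equal weights, Scd1 in T cells at -0.21 with equal weights, Hmgcs1 in Langerhans-like cells at -0.56 after thinning, and Hmgcs1, Fasn and Mvd there at -0.58, -0.55 and 0.48 with clustering without the members. The alternatives for Langerhans-like cells and those without the naive T cells were chosen after seeing the data. The cause of each move was not tested. With TMM scaling the member medians were 0.16 in macrophages and -0.053 in T cells (0 T cell members higher), the log2 sterol sum of macrophages over T cells was 0.65 in WT and 0.64 in 6PGDKO, and that of Langerhans-like cells over macrophages 1.59 in WT. With median of ratios scaling the medians were 0.15 and -0.049 (0 T cell members higher), and macrophages over T cells was 0.62 in 6PGDKO. With minimums of 10 UMIs or 1 UMI, 3 members were higher and 1 lower in monocytes and 5 lower in Langerhans-like cells. The counts of members in this paragraph have no share of all genes beside them. They show how far the counts moved and are not results about the members. After thinning to 2000 UMIs the medians were 0.13 in macrophages (16 members, 1 lower), -0.17 in monocytes (7 members, 1 lower), 0.20 in T cells (2 higher) and -0.32 in Langerhans-like cells (6 members, 0 lower), macrophages over T cells was 0.72 in WT, and Langerhans-like cells over macrophages 1.42 in 6PGDKO. With clustering without the members, 2 members were higher in monocytes, 0 higher and 0 lower in Langerhans-like cells, and in 6PGDKO the sums were 0.36 for macrophages over T cells and 1.45 for Langerhans-like cells over macrophages. Without cells of another lineage, 4 members were higher in macrophages, 3 in monocytes (median 0.16) and 4 lower in Langerhans-like cells (median -0.32), the T cell median was -0.046, macrophages over T cells was 0.64 in 6PGDKO, and Langerhans-like cells over macrophages 1.97 and 1.42. With each cell weighted equally, the medians were 0.35 in macrophages (4 higher), -0.10 in monocytes (1 lower) and 0.11 in T cells (0 lower), and Langerhans-like cells over macrophages 1.76 and 1.43. Without naive T cells the T cell median was -0.038 with 0 members higher. Resolution 1.6 gave no value in monocytes, since 399 of 471 of them fell in an unnamed cluster and no member reached 50 UMIs in the 22 and 43 cells that kept the name. Depth limits the members of neutrophils, B cells, epithelial tumor cells and the unnamed clusters, most of which rest on fewer than 50 UMIs.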
